A study of Homo sapiens with 34 samples.

Results

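The genes of the core-binding factor were followed in 3 human B-ALL cell lines after *CCND3* knockdown and after CDK4/6 inhibition. They were *CBFB*, *RUNX1*, *RUNX2* and *RUNX3*, taken by their symbols, 4 of the 17587 genes listed in at least 1 of 6 tables. RNA-seq was done in the lines NALM-6, with the fusion ETV6-PDGFRB, RS4;11, with MLL-AF4, and BV-173, with BCR-ABL. In each line, cells carrying a lentiviral shRNA against *CCND3* were compared on day 4 with cells carrying a scrambled shRNA, and cells given 1 µM palbociclib, an inhibitor of CDK4 and CDK6, were compared after 3 days with cells given DMSO. The 34 samples formed 12 groups of 3 samples, or of 2 for the NALM-6 knockdown and for the DMSO control of the BV-173 line. The transduced cells were sorted after lentiviral infection and carried a single shRNA sequence against *CCND3*, so that effects of the hairpin itself and of *CCND3* loss cannot be told apart. The labels do not say whether samples of a group were separate cultures.

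The authors deposited 1 level per gene and group, scaled within each pair of groups, so the spread between samples and the depth per sample are unknown. No test over samples could therefore be run from these levels, and no value carries an SD over samples. The authors' own comparison columns were not used. A log2 ratio is that of the treated over the control level in the same table. It is described as higher or lower when the levels differed by at least 1.5-fold, and such counts are given beside the percentage of all genes in that table that did so in the same direction. Where 3 values are given together, they are for NALM-6, then RS4;11, then BV-173. Since the 6 tables were scaled separately, levels of different lines or treatments are only set side by side.

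RUNX proteins bind DNA through their Runt domain, and their core recognition sequence is TGTGGT. CBFB does not bind DNA itself but joins the Runt domain, raises its affinity for DNA and protects RUNX1 from degradation. RUNX1 is required for the emergence of blood stem cells and for early B-cell development, RUNX2 drives bone formation, and RUNX3 acts in T and NK cells and in sensory neurons. RUNX1 and CBFB are recurrent targets of leukemic translocations such as ETV6-RUNX1 and CBFB-MYH11. Cyclin D3 and CDK6 have both been shown to bind RUNX1, and cyclin D3 can compete with CBFB for it.

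The genes lie on 4 chromosomes (RefSeq annotation of GRCh38.p14): *CBFB* at chr16:67029149-67101058, *RUNX1* at chr21:34787801-35049302, *RUNX2* at chr6:45328330-45551082 and *RUNX3* at chr1:24899511-24965138. *RUNX1*, *RUNX2* and *RUNX3* overlap noncoding or antisense genes in the GENCODE annotation, among them *SUPT3H* at the *RUNX2* locus. Whether the libraries kept the strand is not stated, so reads of such overlapping genes cannot be told apart from those of the RUNX genes. Reads from the conserved Runt domain can also be divided between the RUNX genes during level estimation.

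RUNX factors can act on their own genes, and therefore promoters of 300 bases around transcript starts, from the RefSeq table of GRCh38.p14, were searched for the core on both strands. The table held 1 such promoter for *RUNX1*, 2 for *RUNX2* and 2 for *RUNX3*. *CBFB* had no entry. The core TGTGGT was found at least once in 13.1% of the 35116 promoters of the table and 2 times or more in 1.31%. The *RUNX2* promoter at chr6:45328080-45328379 held 4 matches and the *RUNX3* promoter at chr1:24964961-24965260 held 2, whereas the other *RUNX2*, the other *RUNX3* and the *RUNX1* promoter held none. The *RUNX1* window, at chr21:34888650-34888949 on the minus strand, lies within the gene, whose annotated span ends at chr21:35049302. A *RUNX1* promoter at that end was not searched, so nothing can be said of cores there. The sequences below are shown because they place a pair of cores in the same arrangement in both genes, and capitals mark the core, read here on the opposite strand as ACCACA. The *RUNX2* window is at chr6:45328338-45328367 on the plus strand, from 8 to 37 bases after the start base, and the *RUNX3* window is at chr1:24965120-24965149 on the minus strand, from position -139 to -110 relative to it. The annotated span of *RUNX3* ends at chr1:24965138, inside this window, so the start base used for *RUNX3* lies within the gene.
RUNX2: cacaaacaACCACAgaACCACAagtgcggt
RUNX3: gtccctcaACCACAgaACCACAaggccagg
Both windows contain a run of 18 identical bases, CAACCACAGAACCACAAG. It occurred in 2 of the 35116 promoters, these of *RUNX2* and *RUNX3*. None of the 5 RUNX promoters held the E2F sequence TTTNNCGC (6.89% of all promoters), the cell-cycle element TTTGAA (15.2%) or the FOXO sequence GTAAACA (3.42%). These matches describe the letters of the windows and are not measured binding sites.

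The targeted gene was examined first. *CCND3*, encoding cyclin D3, went from 19498.5 to 4727 in NALM-6, from 16177.5 to 3353 in RS4;11 and from 6619 to 2060 in BV-173 after knockdown, which left 24.2%, 20.7% and 31.1% of the control level. After palbociclib its log2 ratios were -0.36, -0.29 and -0.40, none past 1.5-fold. Of 10 markers of B-ALL cells, such as *PAX5*, *EBF1* and *VPREB1*, 9 or 10 were listed in each table with a summed level between 42293 and 113911. Among them, *MME* (CD10) stayed under 10 in the RS4;11 groups, as did *CD34* where listed in RS4;11 and BV-173. The 2 to 4 listed T-cell markers summed to between 0.869 and 8.49, the erythroid markers to between 0.157 and 1.63, and the 5 myeloid markers to between 276 and 2046. No gene was listed at 0 in any group, and between 1788 and 2297 genes had a level under 1, so that the lowest values are not plain means of counts.

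*CBFB* and *RUNX1* were strongly expressed in all 12 groups. Ranked by level per kilobase of transcript within each group, *CBFB* stood between the 90.0th and 93.7th percentile in the 6 control groups, and between the 78.6th and 86.7th in the 6 treated groups. *RUNX1* stood between the 78.3rd and 94.8th percentile over all 12 groups, *RUNX3* between the 5.17th and 56.3rd in the 10 groups where it was listed, and *RUNX2* between the 0.593rd and 23.4th. *RUNX3* was not listed in the palbociclib table of NALM-6. The plot of levels by group shows this order, with *CBFB* at 1405 or more, *RUNX1* at 2939 or more and *RUNX2* at 18.9 or less.

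**Figure D1:**
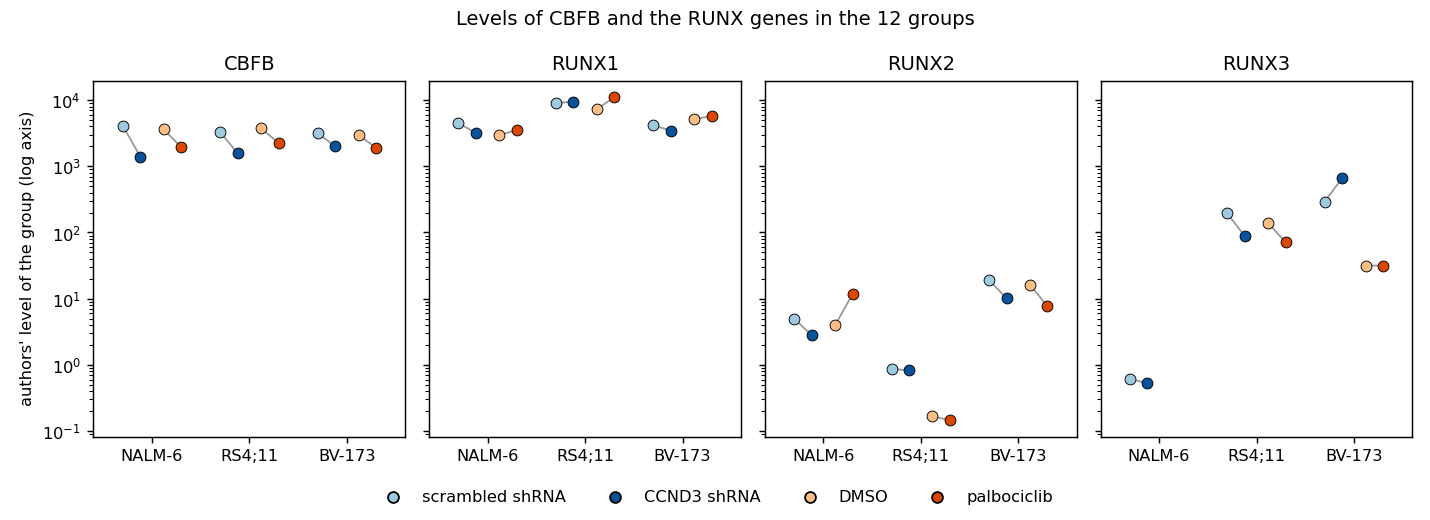
Levels of *CBFB*, *RUNX1*, *RUNX2* and *RUNX3* in the 12 groups, as the authors' value of each group on a log axis, with a line joining each control to its treated group in the same table. *CBFB* was lower in the treated group of all 6 pairs, *RUNX1* stayed within 1.52-fold of its control, and *RUNX3* went in opposite directions in RS4;11 and BV-173 after knockdown.

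Of the 23 pairs of gene and comparison that were listed, 3 were higher, 11 were lower and 9 were neither. In NALM-6 knockdown 2 genes were lower (*CBFB* and *RUNX2*) and 0 higher, where 8.47% of 15409 genes were lower and 7.82% higher. In RS4;11 knockdown 2 were lower (*CBFB* and *RUNX3*) and 0 higher, against 9.72% and 9.73% of 15944 genes. In BV-173 knockdown 2 were lower (*CBFB* and *RUNX2*) and 1 higher (*RUNX3*), against 4.78% and 3.32% of 14763 genes. Palbociclib moved more genes of the tables past 1.5-fold. In NALM-6 palbociclib 1 was lower (*CBFB*) and 1 higher (*RUNX2*), where 14.9% of 15614 genes were lower and 21.4% higher. In RS4;11 palbociclib 2 were lower (*CBFB* and *RUNX3*) and 1 higher (*RUNX1*), against 15% and 16.7% of 15857 genes. In BV-173 palbociclib 2 were lower (*CBFB* and *RUNX2*) and 0 higher, against 11.9% and 13.6% of 14797 genes. The 4 genes thus did not move as a block, and *CBFB* was the one gene of the 4 that passed 1.5-fold in the same direction everywhere.

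**Figure D2:**
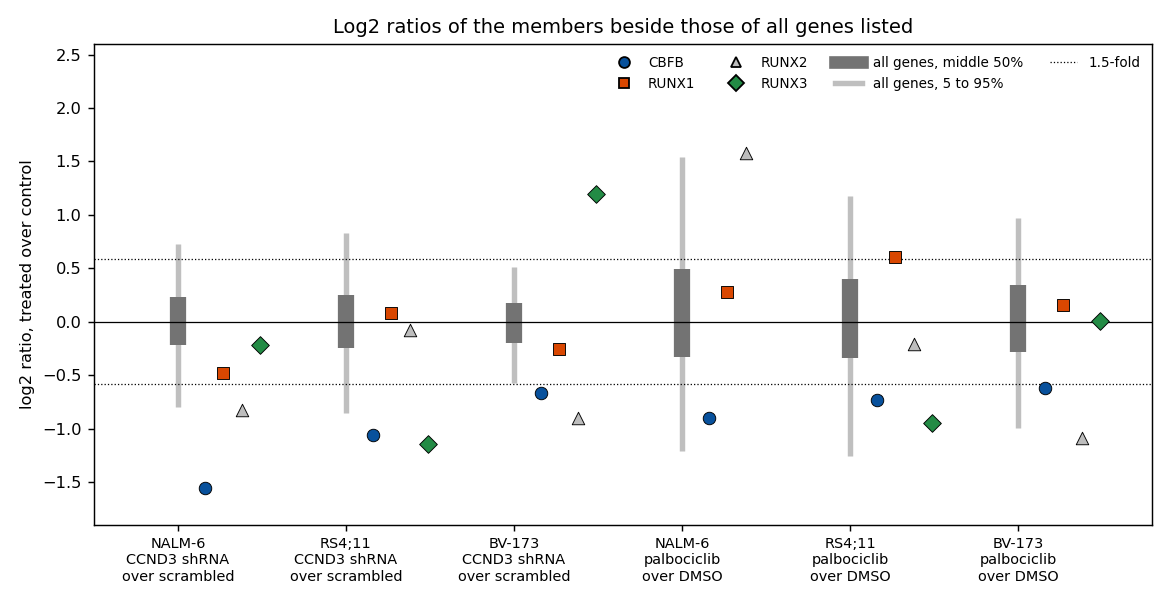
Log2 ratios of treated over control level for the 4 genes in the 6 comparisons, beside bars that span the middle 50% (dark) and the 5th to 95th percentile (light) of all genes listed in that table. The dotted lines mark 1.5-fold. *CBFB* lay below the lower dotted line in each comparison and below the light bar in the knockdowns of all 3 lines, and no *RUNX3* point is drawn for palbociclib in NALM-6, where it was not listed.

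*CBFB* was lower in the treated group of every line and treatment. After knockdown it went from 4134 to 1405 in NALM-6, a log2 ratio of -1.56, which left 34.0% of the control level. In RS4;11 it went from 3282 to 1578 (-1.06), leaving 48.1%, and in BV-173 from 3178 to 2003 (-0.67), leaving 63.0%. The decrease was therefore 2.94-fold in NALM-6, 2.08-fold in RS4;11 and 1.59-fold in BV-173. Within the tables these were far down the list of ratios: in NALM-6 41 of 15409 genes (0.266%) were lower still, and in RS4;11 and BV-173 3.44% and 3.21% were. The order of the lines for *CBFB* was not that of the remaining *CCND3*, which was lowest in RS4;11.

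After palbociclib, *CBFB* went from 3627 to 1945 in NALM-6 (-0.90, leaving 53.6%), from 3745 to 2250 in RS4;11 (-0.74, leaving 60.1%) and from 2945 to 1916 in BV-173 (-0.62, leaving 65.1%). Here 8.23%, 11.4% and 10.9% of the genes in the tables were lower still, so that the position of *CBFB* was less extreme than after knockdown. The mean log2 ratio over lines was -1.09 ± 0.45 (SD over the 3 lines) for knockdown and -0.75 ± 0.14 for palbociclib, and the ranges over lines, -1.56 to -0.67 and -0.90 to -0.62, overlap. Subtracting the palbociclib from the knockdown log2 ratio line by line gave -0.66, -0.32 and -0.05, with a mean of -0.34 ± 0.31 (SD over lines). As background, 19.1% of the 13307 genes listed in all 6 tables had a difference of -0.05 or lower in each line. The paper, using these same samples, names *CBFB* among the genes repressed by knockdown only. Neither its direction nor its difference between the treatments is therefore independent evidence here. By the levels used here, *CBFB* was also at least 1.5-fold lower after palbociclib in all 3 lines. The paper's call rested on statistical cut-offs, a measure unlike the fold used here.

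A level at least 1.5-fold lower in all 6 comparisons was shared by 211 of the 13307 genes (1.59%), *CBFB* among them. For the 3 knockdown comparisons alone the count was 243 genes (1.83%), and for the 3 palbociclib comparisons 820 genes (6.16%). In BV-173 *CBFB* passed this limit narrowly, at 1.59-fold and 1.54-fold. Proliferation genes moved alongside. Of 10 cell cycle genes, among them *MKI67*, *TOP2A* and *E2F1*, 9, 10 and 4 were lower after knockdown, with median log2 ratios of -1.20, -1.84 and -0.53, where 8.47%, 9.72% and 4.78% of all genes were lower. After palbociclib 9, 10 and 9 were lower, with medians of -2.48, -4.91 and -1.49, against 14.9%, 15% and 11.9% of all genes. The median of all genes lay between -0.01 and 0.06 in the 6 tables. *CBFB* thus had its lowest ratios in NALM-6 with both treatments, while the median of the cell cycle genes was lowest in RS4;11, and the part of the cell cycle in the *CBFB* level was not tested. In bulk RNA, a lower level in all cells and a loss of cells with a high level cannot be told apart.

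*RUNX1* encodes the main DNA-binding partner of CBFB in B-cell precursors. After knockdown its level went from 4473 to 3205 in NALM-6 (-0.48), from 9007 to 9501 in RS4;11 (0.08) and from 4145 to 3462 in BV-173 (-0.26). After palbociclib it went from 2939 to 3566 in NALM-6 (0.28), from 7278 to 11072 in RS4;11 (0.61) and from 5155 to 5747 in BV-173 (0.16). Only the palbociclib value of RS4;11 was past 1.5-fold, at 1.52-fold, where 16.1% of all genes were higher still.

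The means over lines had opposite signs, -0.22 ± 0.28 (SD over the 3 lines) for knockdown and 0.35 ± 0.23 for palbociclib. Knockdown less palbociclib gave -0.76, -0.53 and -0.42 in the lines, with a mean of -0.57 ± 0.18. A difference of -0.42 or lower in each line was found for 515 of 13307 genes (3.87%). *RUNX1* was therefore lower relative to its own control after knockdown than after palbociclib in all 3 lines, and this difference varied less between the lines than that of *CBFB*. The knockdown and palbociclib comparisons had separate controls, and the controls themselves differed for *RUNX1*. With the median gene of both tables set equal, scrambled over DMSO was 0.51, 0.35 and -0.30 on the log2 scale. For *CBFB* the same ratios were 0.10, -0.15 and 0.12. The part of the transduction, the sort and the different day in these control differences was not tested.

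The level of *RUNX3* differed widely between the lines. In NALM-6 it was barely present, at 0.613 in the scrambled and 0.526 in the knockdown group. In RS4;11 it went from 194 to 87.8 after knockdown (-1.15, 2.21-fold lower) and from 138 to 71.1 after palbociclib (-0.95, 1.93-fold lower). In BV-173 it went from 292 to 669 after knockdown, a log2 ratio of 1.20 and 2.29-fold higher, and was 31.5 and 31.6 in the DMSO and palbociclib groups, a log2 ratio of 0.00.

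The decrease in RS4;11 was exceeded by 3.01% of genes after knockdown and 7.66% after palbociclib, and the increase in BV-173 knockdown by 0.210%. *RUNX3* thus had opposite signs in these lines after knockdown, while *CBFB* was lower in both. The BV-173 controls were far apart for this gene: with the tables set to the same median gene, the scrambled level was 9.34-fold that of DMSO (3.22 on the log2 scale), and 30 of 14070 genes (0.213%) had a larger ratio. In RS4;11 the same ratio was 1.45-fold. The increase after knockdown in BV-173 therefore came on top of a control level that already differed between the transduced and the DMSO-treated cells, and the part of the transduction in it was not tested. Markers of T cells, where RUNX3 is normally active, summed to 5.38 and 5.61 in the scrambled and knockdown groups of BV-173 (3 of 5 listed).

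*RUNX2* was low in every group. Its level went from 4.97 to 2.81 in NALM-6 (-0.82) and from 18.9 to 10.1 in BV-173 (-0.90) after knockdown, and was 0.870 and 0.823 in RS4;11 (-0.08). After palbociclib it went from 3.95 to 11.8 in NALM-6 (1.58, 2.98-fold higher) and from 16.3 to 7.67 in BV-173 (-1.09, 2.12-fold lower), and was 0.168 and 0.145 in RS4;11 (-0.21). The RS4;11 palbociclib value is the lowest of any gene in its group, so little can be read from that ratio. In NALM-6 palbociclib 4.76% of genes were higher still, and in BV-173 4.26% were lower still. Without values per sample, the scatter at levels this low could not be seen. Targets of RUNX2 in bone gave little to compare it with, since 4 to 8 of 9 were listed and most had levels under 10. The exceptions included *SPP1* (osteopontin) in NALM-6, at 645 and 2805 in knockdown and at 491 and 401 with palbociclib, *COL1A1*, which reached 216 in RS4;11 knockdown, and *BGLAP* (osteocalcin), which went from 3.40 to 91.2 in RS4;11 palbociclib, where *RUNX2* was at the floor.

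The balance between CBFB and its partners was described as the level of *CBFB* per kilobase over the summed level per kilobase of the RUNX genes, a ratio that is free of the scaling of a table. In NALM-6 it was 1.94 in the scrambled and 0.919 in the knockdown group, and 2.52 with DMSO and 1.11 with palbociclib. In RS4;11 it was 0.733 and 0.340 for knockdown, and 1.07 and 0.432 for palbociclib. In BV-173 it was 1.36 and 0.888 for knockdown, and 1.15 and 0.671 for palbociclib. RS4;11, the line where *RUNX1* ranked highest among all genes, thus had the lowest ratio among the lines for either control.

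On the log2 scale this ratio went down by more after palbociclib than after knockdown in each line. The changes were -1.08 and -1.18 in NALM-6 (knockdown, then palbociclib), -1.11 and -1.31 in RS4;11, and -0.62 and -0.77 in BV-173. Scrambled and DMSO control ratios differed, at 1.94 and 2.52 in NALM-6, 0.733 and 1.07 in RS4;11 and 1.36 and 1.15 in BV-173. The treated ratio itself was lower after knockdown in NALM-6 (0.919 against 1.11) and RS4;11 (0.340 against 0.432). In BV-173 it was lower after palbociclib (0.671 against 0.888). The order of the treatments thus depends on their separate controls. The summed RUNX level itself changed by -0.48, 0.05 and -0.05 after knockdown and by 0.28, 0.58 and 0.15 after palbociclib. With palbociclib the RUNX sum was thus above its control in each line while *CBFB* was below its own, whereas after knockdown the sum was lower in NALM-6 and close to it in the other lines. The lengths used are the authors' values for each table, which for *RUNX1* ranged from 6241 to 6802 bases. These are RNA ratios and give no protein stoichiometry.

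*RUNX1* made up nearly all of the summed RUNX level per kilobase, at least 96.8% in 10 of the 12 groups. The exceptions were the transduced BV-173 groups, where it was 90.4% with scrambled and 78.0% with *CCND3* shRNA, and *RUNX3* took 9.18% and 21.7%. In the BV-173 DMSO and palbociclib groups *RUNX3* was 0.895% and 0.808% of the sum. In RS4;11 its share went from 3.18% to 1.39% after knockdown and from 2.90% to 1.00% after palbociclib. *RUNX2* never exceeded 0.469% of the sum.

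**Figure D3:**
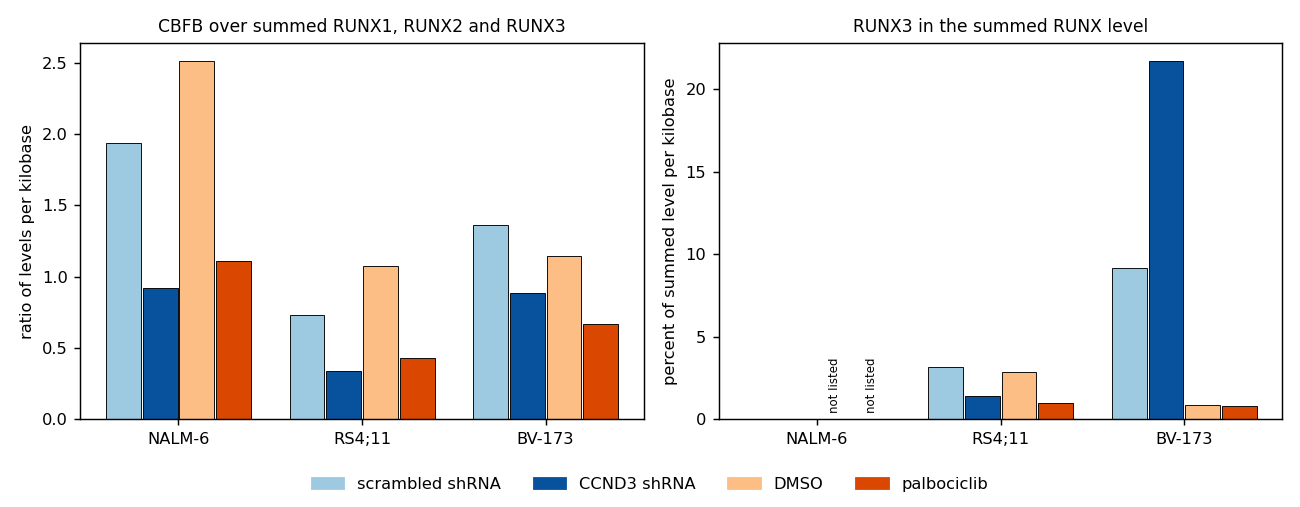
Left, *CBFB* level per kilobase over the summed level per kilobase of *RUNX1*, *RUNX2* and *RUNX3* in each group. Right, *RUNX3* as percent of the same sum, where "not listed" marks the 2 NALM-6 groups without a value. The ratio was lower in all 6 treated groups than in their controls, and the share of *RUNX3* reached 21.7% in BV-173 knockdown.

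Genes whose products modify or degrade RUNX1 and CBFB were followed as a list of 16, all listed in each table. After knockdown 0 were higher, and 6, 7 and 3 were lower, with medians of -0.34, -0.27 and -0.36, against 7.82%, 9.73% and 3.32% of all genes higher and 8.47%, 9.72% and 4.78% lower. After palbociclib 1, 0 and 1 were higher and 8, 7 and 7 lower, with medians of -0.55, -0.34 and -0.54, against 21.4%, 16.7% and 13.6% higher and 14.9%, 15% and 11.9% lower. The median of all genes was between -0.01 and 0.06. *CCND3* itself is part of this list.

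Among them, *CCND3*, *CDK1* and *CDK2* were lower in all 3 lines after knockdown, and *CDC20*, *CDK1*, *CCNB1*, *CDK2* and *SKP2* after palbociclib. *CDK1*, a mitotic kinase that phosphorylates RUNX1, had log2 ratios of -1.37, -1.65 and -0.65 after knockdown and of -3.20, -4.46 and -2.01 after palbociclib. *CDK2* had -0.75, -1.53 and -0.61, and -1.96, -2.68 and -1.45. *CDC20*, an activator of the anaphase-promoting complex, which turns RUNX1 over in mitosis, had -1.46, -1.59 and -0.33 after knockdown and -3.22, -6.35 and -1.49 after palbociclib. *CCNB1*, the cyclin of CDK1, had -1.26, -1.35 and -0.48 after knockdown and -2.96, -3.47 and -1.45 after palbociclib. *SKP2*, a ubiquitin ligase subunit that targets RUNX1, had -0.46, -0.88 and -0.40 after knockdown and -0.88, -1.32 and -0.60 after palbociclib. *CDK6*, which binds RUNX1 and is a target of palbociclib, was in contrast higher in NALM-6 palbociclib (1.09). Its palbociclib ratios in RS4;11 (0.33) and BV-173 (0.23) were not past 1.5-fold, and it had -0.45, -0.04 and -0.41 after knockdown. *PIM1*, a kinase of RUNX1 and RUNX3, had -4.11 and -4.97 in NALM-6 and RS4;11 and -0.20 in BV-173 after palbociclib. After knockdown *PIM1* had -1.27, -1.38 and -0.51. Several of these genes are themselves expressed with the cell cycle, and its part in their levels was not tested.

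Corepressors, coactivators and other proteins that bind core-binding factor were a list of 23 genes, with *AES*, also named *TLE5*, counted once. All 23 were listed in each table. After knockdown 3, 0 and 1 were higher and 1, 3 and 1 lower, beside 7.82%, 9.73% and 3.32% of all genes higher and 8.47%, 9.72% and 4.78% lower. After palbociclib 3, 2 and 3 were higher and 1, 5 and 4 lower, beside 21.4%, 16.7% and 13.6% and 14.9%, 15% and 11.9%. The genes past 1.5-fold in all lines after palbociclib were *CBFA2T3* (ETO2), a corepressor of the family that is fused to RUNX1 in leukemia, and *SUV39H1*, a histone H3K9 methyltransferase that binds RUNX1. *CBFA2T3* went from 389 to 2553 in NALM-6 (2.71), from 157 to 466 in RS4;11 (1.57) and from 137 to 266 in BV-173 (0.95). After knockdown it went from 1202 to 2473 in NALM-6 (1.04) and from 338 to 367 in RS4;11 (0.12). In BV-173 knockdown it went from 375 to 656 (0.81). The scrambled level of *CBFA2T3* was thus above its DMSO level in each line. The part of the separate controls in these ratios was not tested. *SUV39H1* had -2.01, -1.99 and -0.96 after palbociclib and -0.99, -1.43 and -0.42 after knockdown. *KMT2A* (MLL), which RUNX1 and CBFB recruit and which is part of the fusion in RS4;11, had -0.45, -0.45 and -1.03 after knockdown and -0.23, -0.77 and -0.79 after palbociclib. *FLNA* (filamin A), which holds CBFB in the cytoplasm, had -0.48, 0.03 and -0.15 after knockdown and 0.19, -0.50 and 0.57 after palbociclib, none past 1.5-fold.

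Transcription factors that bind DNA beside RUNX1 were a list of 20, of which 19 or 20 were listed in a table. After knockdown 2, 1 and 1 were higher and 0, 1 and 4 lower, where 7.82%, 9.73% and 3.32% of all genes were higher and 8.47%, 9.72% and 4.78% lower. After palbociclib 5, 2 and 2 were higher and 1, 1 and 9 lower, where 21.4%, 16.7% and 13.6% of all genes were higher and 14.9%, 15% and 11.9% lower. The list median in BV-173 palbociclib was -0.55 against 0.04 for all genes, and the 9 lower genes included *ETS1* (-1.51), whose product binds DNA cooperatively with RUNX1, *MYB* (-0.99) and *EBF1* (-0.70). *ETS1* was also lower in NALM-6 palbociclib (-1.43) and in BV-173 knockdown (-0.88), and had -0.47 in RS4;11 palbociclib. *SPI1* (PU.1) had positive ratios in all 6 comparisons, 0.41, 0.51 and 0.75 after knockdown and 0.73, 0.28 and 0.75 after palbociclib, 3 of them past 1.5-fold. *SATB1* was higher in NALM-6 with both treatments (1.96 and 1.53) and lay between -0.39 and -0.01 in the other lines.

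**Figure D4:**
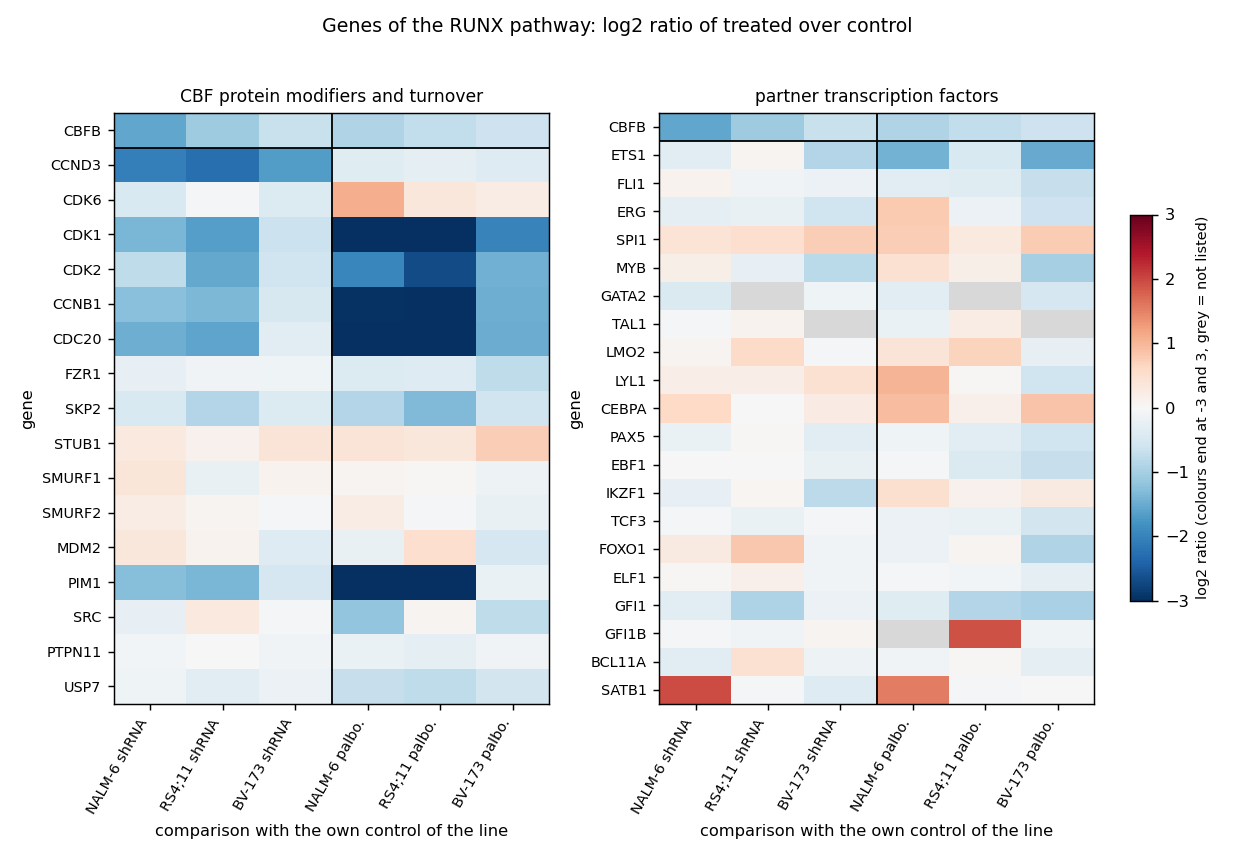
Log2 ratio of treated over control level for genes whose products modify or degrade RUNX1 and CBFB (left) and for transcription factors that act beside RUNX1 (right), with *CBFB* in the top row. Columns are the 6 comparisons, knockdown left and palbociclib right of the black line, blue is lower, red is higher, grey is not listed, and colours end at -3 and 3. Palbociclib columns are darker than the knockdown column of the same line for *CDK1*, *CDC20* and *CCNB1*, while *CBFB* is palest in BV-173.

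Known targets of RUNX proteins in blood cells, 29 genes of which 23 or 24 were listed, had no common direction. After knockdown 5, 2 and 1 were higher and 3, 4 and 4 lower, with medians of -0.06, -0.01 and -0.06, while 7.82%, 9.73% and 3.32% of all genes were higher and 8.47%, 9.72% and 4.78% lower. After palbociclib 9, 4 and 6 were higher and 4, 2 and 5 lower, with medians of 0.23, 0.14 and -0.10, while 21.4%, 16.7% and 13.6% of all genes were higher and 14.9%, 15% and 11.9% lower. *BCL2*, the survival gene, was the one target lower in all 3 lines after knockdown: it went from 938 to 482 in NALM-6 (-0.96), from 4332 to 2544 in RS4;11 (-0.77) and from 1050 to 662 in BV-173 (-0.67). Its palbociclib ratios were -0.15, 0.12 and -0.10, from DMSO levels of 745, 4386 and 2042. The BV-173 controls thus differed for *BCL2* (1050 with scrambled shRNA and 2042 with DMSO), and their part in its ratios was not tested. *CD79A*, a B-cell receptor chain whose promoter is bound by RUNX1, was higher in all 3 lines after palbociclib (1.82, 0.86 and 0.71) and had -0.06, 0.35 and 0.08 after knockdown. In NALM-6 its level was 1870 with DMSO and 6621 with palbociclib, beside 6295 with scrambled and 6051 with *CCND3* shRNA. Its scrambled and DMSO levels were 15584 and 11928 in RS4;11, and 5198 and 6978 in BV-173. The part of these control differences in the *CD79A* ratios was not tested. *NFE2* was higher after palbociclib as well (1.00, 0.91 and 0.99), at levels of 0.779 and 1.55 in NALM-6, 64.7 and 122 in RS4;11 and 15.9 and 31.6 in BV-173. The recombinase genes *RAG1* and *RAG2* were lower in BV-173 with both treatments (*RAG1* -0.80 for knockdown and -1.93 for palbociclib, *RAG2* from 753 to 375 and from 1047 to 401), and in NALM-6 *RAG2* was higher with palbociclib (0.76). *CSF1R*, a myeloid target of RUNX1, went from 145 to 513 in BV-173 palbociclib (1.83) and from 318 to 284 in RS4;11 (-0.16).

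Genes with the pattern most like each member were taken from the 10074 genes listed in all 6 tables with a mean level of at least 100. Likeness is given as Pearson's r over the 12 log2 group levels, each table set to the same median gene, and as the root mean square difference over the 6 log2 ratios. The 12 values come from 3 lines and share tables, and the 3 best of so many genes are high by selection. For *CBFB* the nearest gene by both measures was *GOLT1B*, encoding a Golgi transport protein (r = 0.975, root mean square difference 0.166), with knockdown ratios of -1.38, -0.95 and -0.50 and palbociclib ratios of -0.72, -0.62 and -0.40. By level *AP3M1* (0.952) and *ZNF273* (0.937) followed, and by ratio *ODF2* (0.222) and *CHST14* (0.233). Like *CBFB*, *GOLT1B* was lowest in NALM-6 and least changed in BV-173 within each treatment.

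For *RUNX1*, the nearest genes by level were *SPN* (CD43, r = 0.985), *RAC2* (0.975) and *FRMD4B* (0.973), and by ratio *CACNB1* (0.0686), *NSF* (0.0995) and *PPP1R3B* (0.139). *SPN* and *RAC2* are genes of blood cells. *CACNB1*, a calcium channel subunit, had knockdown ratios of -0.51, 0.15 and -0.22 and palbociclib ratios of 0.34, 0.51 and 0.08. As for *RUNX1*, each knockdown ratio was below the palbociclib ratio of the same line. For *RUNX2*, whose values are near the floor, they were *FHIT* (0.960), *TNFAIP3* (0.950) and *RNMT* (0.945) by level and *BIK* (0.429), *IFIT2* (0.445) and *ERG* (0.459) by ratio. *RUNX3* was compared over the 5 tables that list it, with 10 levels and 10087 genes. The nearest were *PGD* (0.977), *PPIF* (0.970) and *P2RX5* (0.957) by level and *CRIP1* (0.310), *DPF1* (0.393) and *FOXO6* (0.403) by ratio. Over all 12 groups on the same centred scale, the levels spanned 1.56 log2 units for *CBFB*, 1.92 for *RUNX1* and 6.92 for *RUNX2*.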

How the data were processed

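RNA-seq of 34 samples in 12 groups was analysed. Reads were cleaned by the authors (SOAPnuke), aligned to hg38 (Bowtie2) and turned into levels (RSEM), and the authors scaled the 2 groups of each comparison with DESeq2; versions are not given in the sources used here. The deposited value is a signal: 1 level per gene and group, scaled within the pair by the authors, with a gene length in bases. Depth per sample is unknown. The tables also hold the authors' own fold changes, p-values and adjusted p-values, which were not used.

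The log2 ratio of treated over control level was computed within each table and described against a fold of 1.5. Members of the core-binding factor were taken by symbol. Members and gene lists were chosen with earlier results of these data known. Named genes were the members, *CCND3*, list and marker genes, and of each list up to 3 genes a treatment with the largest mean log2 ratio among those past 1.5-fold in all 3 lines, and for each member the 3 most alike genes by either measure. Other list genes are given for their role, and 1 marker gene is not reported here. Likeness of *RUNX3* over 5 tables, the difference of treatments and the ratio of controls were added after the data were seen. Levels per kilobase used the deposited lengths. The steps used numpy 2.4.6, pandas 2.3.3 and matplotlib 3.10.9 under Python 3.11.15. The counts past a fold and the likeness measures were tested on simulated data, and the other steps were not. The planned test for values per sample was not run, since the tables hold 1 value per group. Alternatives were another fold, a pseudocount, centring on the median gene, other filters and leaving out each line.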

Additional observations from a re-analysis of the deposited data

Results flagged for a closer look

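*RUNX3* after *CCND3* knockdown went in opposite directions in 2 lines, with a log2 ratio of -1.15 in RS4;11 and 1.20 in BV-173. *RUNX2* after palbociclib did so as well, with 1.58 in NALM-6 and -1.09 in BV-173. Each line gave 1 authors' value per group, so single samples could not be seen, and the difference between lines was not tested in either case. The *RUNX2* levels behind these ratios lay between 3.95 and 16.3, and the *RUNX3* levels between 87.8 and 669. The scrambled level of *RUNX3* in BV-173 was 9.34-fold its DMSO level.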

How the results depend on the processing

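The log2 ratio of *RUNX3* in BV-173 palbociclib, 0.0043, became -0.036 when centred on the median gene, and no other ratio of a member changed sign under an alternative. A pseudocount moved low ratios: with 1 and with 10 added, *RUNX2* was -0.65 and -0.22 in NALM-6 knockdown, 1.37 and 0.64 in NALM-6 palbociclib and -0.028 and -0.0032 in RS4;11 palbociclib, and *RUNX3* was -0.080 and -0.012 in NALM-6 knockdown. With 10 added, *RUNX2* was -0.52 in BV-173 knockdown and -0.57 in BV-173 palbociclib. With a fold of 2, 4 pairs were lower in place of 11. Centring on the median gene shifted ratios by at most 0.0607 and moved no pair across 1.5-fold, and leaving out each line moved no mean of *CBFB* or *RUNX1* by more than 1 SD over lines. Without division by length the ratio of *CBFB* to the RUNX genes lay between 0.165 and 1.23. Its 6 log2 changes stayed within 0.1 of those per kilobase, with the largest shift in BV-173 knockdown, from -0.62 to -0.56. With genes of a mean level of at least 10, between 5.39% and 17.6% of genes were lower. By Spearman's rho each list of most alike genes by level changed, in 1 gene for *CBFB* (*CYB5B* for *ZNF273*) and in all 3 genes for *RUNX1*, *RUNX2* and *RUNX3*. No paired analysis was possible because the tables hold 1 value per group.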
